A study of Mus musculus with 6 samples.

Results

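The genes described here move cholesterol into, within and out of the cell. They were chosen by name, as Scarb1, Scarb2, Lrp1, Npc1, Npc2, Soat1, Nceh1, Stard3, Osbp and Abca1, and all 10 were found among the 14774 genes of the deposited count table. The study sequenced total RNA from wild type MA-10 cells left untreated (3 libraries), which are progesterone-producing cells of a mouse Leydig cell tumor, and from untreated STARKO1 cells (3 libraries). STARKO1 is a STAR KO line grown from 1 MA-10 cell after CRISPR/Cas9 targeting of exon 2 of Star, so that loss of STAR and any other property of this clone cannot be told apart. Both lines were kept in the same medium with fetal bovine and horse serum, which carry lipoproteins. The paper's methods give all data, unless stated otherwise, as coming from 3 independent experiments, but do not describe the RNA sequencing. Neither the labels nor the methods say of these libraries that the 3 of a line came from separate cultures. The p-values below measure only the spread between these libraries, which may be technical.

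Steroidogenic cells take up cholesterol mainly from lipoproteins. Cholesteryl esters enter selectively through the HDL receptor at the cell surface, while whole particles taken up by endocytosis are broken down in lysosomes, from which NPC2 and NPC1 release free cholesterol. Surplus cholesterol is esterified in the endoplasmic reticulum and kept in lipid droplets, hydrolysed again on demand, carried between membranes by lipid transfer proteins, or exported to apolipoproteins. STAR acts at the end of this route, where cholesterol enters the mitochondria.

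The libraries held between 14114349 and 19530054 counts. MA-10 replicate 1 was more like the STARKO1 libraries than like the other MA-10 libraries. Which of the MA-10 libraries is the unusual one was not tested. Pearson's r of log2 CPM, taken across 8662 genes that do not count as replicates, stood at 0.795 and 0.868 between MA-10 replicate 1 and the other two MA-10 libraries, 0.974 between MA-10 replicates 2 and 3, between 0.948 and 0.954 for MA-10 replicate 1 with the STARKO1 libraries, and at least 0.995 among the STARKO1 libraries. CPM are counts scaled to a common library size after TMM scaling, a correction for the composition of each library. The TMM factor was 1.16 for MA-10 replicate 1, close to the range of 1.17 to 1.19 for STARKO1 cells. It was lower for MA-10 replicate 2 (0.654) and for MA-10 replicate 3 (0.805). Scaling by library size alone does not use these factors. Star, the targeted gene, had 1064, 1261 and 697 counts in the MA-10 libraries and 48, 46 and 36 counts in the STARKO1 libraries. All 8 Leydig cell markers of a list that holds Star and Scarb1 were found, with levels that summed to 1502 to 2004 CPM (MA-10) and 1338 to 1387 CPM (STARKO1). The sums hide opposite shifts of single markers. Hsd3b1 fell from a mean of 29.8 to 5.19 CPM (adjusted p = 0.00268 in edgeR's quasi-likelihood test). Without being called, Cyp11a1 (835 to 439 CPM) and Lhcgr (3.83 to 2.57) were lower in all STARKO1 libraries. Cyp17a1 (3.58 to 8.57 CPM) and Nr5a1 (472 to 633) were higher in all of them, also without being called. Insl3 and Scarb1 overlapped. Lists for other cells had few genes in the table. Of 5 endothelial markers, Pecam1 and Cdh5 were found, with a sum of 26.4 to 41.5 CPM (MA-10) and 118 to 124 CPM (STARKO1). This sum was nearly all Cdh5 (means of 33.8 and 121 CPM), while Pecam1 had means of 0.423 and 0.729 CPM and overlapped between the lines. Of 7 myoid cell and fibroblast markers, Myh11 and Pdgfra were found, with a sum of 3.12 to 7.66 CPM and 0.337 to 0.430 CPM. Most of this difference lay in Pdgfra (means of 5.12 and 0.0580 CPM), while Myh11 had 0.591 and 0.335 CPM and overlapped. The sums were 318 to 509 and 557 to 577 CPM for 2 of 7 Sertoli cell markers. Nearly all of this was Rhox5 (means of 389.7 and 559 CPM), while Gata1 had 4.08 and 8.78 CPM. Sums were 5.38 to 10.1 and 6.66 to 8.69 CPM for 3 of 6 macrophage markers, mostly Csf1r (means of 6.75 and 7.61 CPM). For 1 of 6 germ cell markers the levels were 2.20 to 3.55 and 1.91 to 2.83 CPM. Both samples are cultured lines of Leydig tumor cells and not tissues, so these sums do not count cells of other types. Bulk RNA does not show whether all cells of a line share a level. The part of these markers in the results below was not tested.

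Of the 10 genes, 2 fell in STARKO1 cells and none rose at an adjusted p under 0.05 in edgeR's quasi-likelihood test. The 2 that fell, Scarb2 and Npc2, encode lysosomal proteins. Of the 11939 genes tested, 4.74% were called lower and 4.30% higher, or 9.04% in both directions. The median log2 fold change was -0.17 over the 10 genes and -0.05 over all genes tested. Before adjustment, 5 of them had a p under 0.05 (Scarb2, Npc2 and Soat1 lower, Stard3 and Abca1 higher), against 37.6% of all genes. DESeq2 called 4 of these, all but Stard3, and 28.4% of all genes. The libraries of the cell lines did not overlap for 7 of the 10 genes, against 42.5% of all genes. In STARKO1 cells 5 of them were lower (21.0% of all genes) and 2 higher (21.5% of all genes). All 10 genes passed the filter on low counts, with between 71 and 7289 counts in a library. MA-10 cells were the more variable line, and the test used 1 estimate of the spread for both lines. The highest library was 1.05-fold to 2.44-fold above the lowest in MA-10 cells and 1.01-fold to 1.18-fold in STARKO1 cells, and the spread was wider in MA-10 cells for 9 of the 10 genes. MA-10 replicate 1 was the MA-10 library nearest to the STARKO1 mean for 7 of the 10 genes. The count of called genes was 7 without MA-10 replicate 1 (4 higher and 3 lower), a fit that called 65.7% of the 12167 genes it tested, so that 7 of 10 is close to the share of all genes. The median of all genes moved up by 0.11 on the log2 scale in that fit. The count of called genes was 1 without MA-10 replicate 2 or 3, and 0 without any 1 of the STARKO1 replicates. These 5 fits called between 0.730% and 4.19% of all genes. Without 1 of the STARKO1 replicates, between 3 and 4 of the 10 genes had an unadjusted p under 0.05. Of all genes, 2698 of 12196, 2751 of 12195 and 2626 of 12235 had such a p without STARKO1 replicates 1, 2 and 3.

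**Figure D1:**
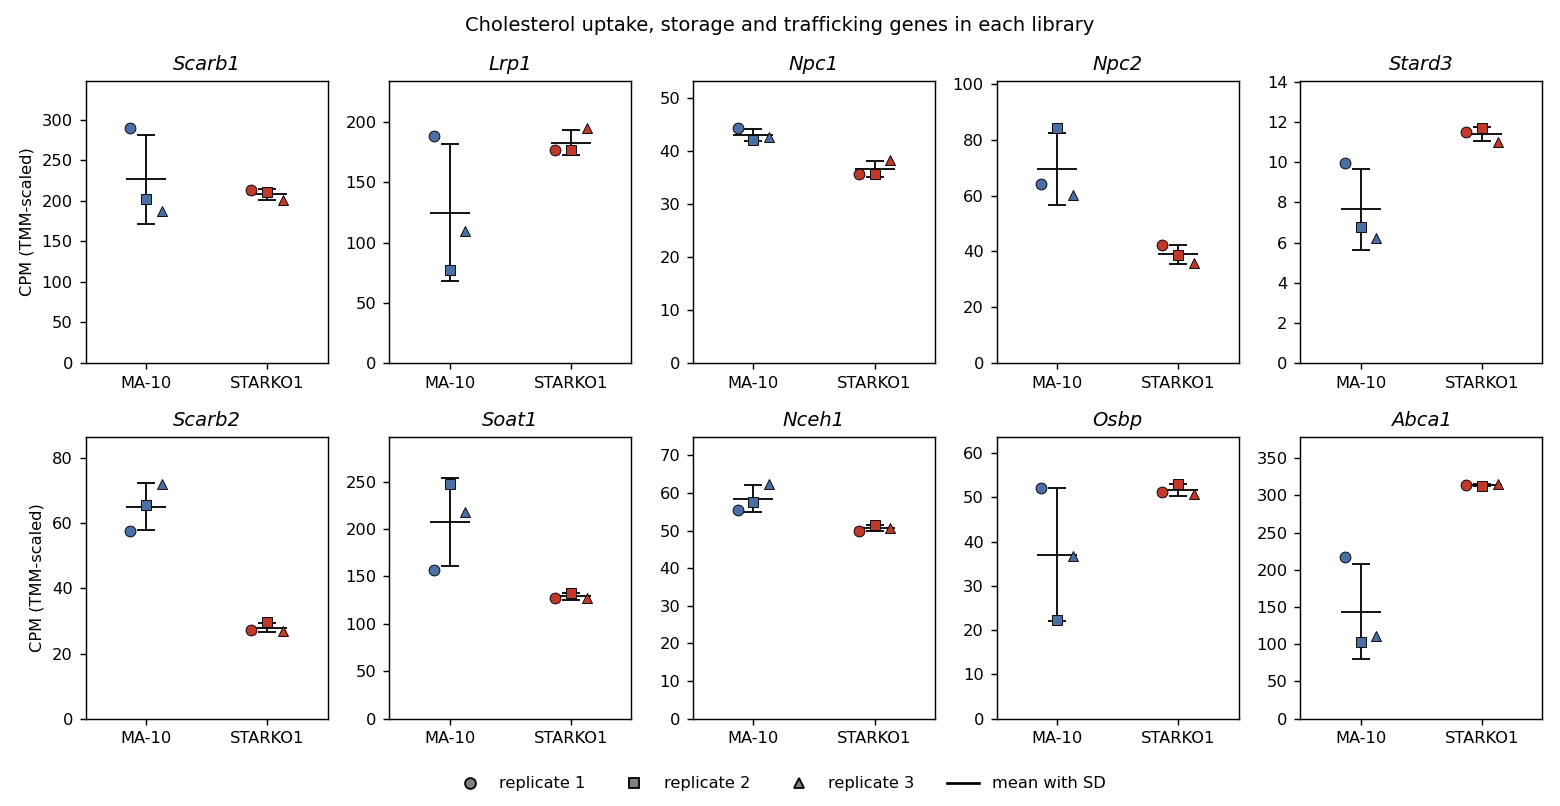
Level of each gene in CPM after TMM scaling (vertical axes, each from 0) in the 3 MA-10 and the 3 STARKO1 libraries, with the mean and SD. The STARKO1 libraries lie close together, Scarb2 and Npc2 are lower in all of them, and MA-10 replicate 1 (circle) lies at or near the STARKO1 level for Lrp1 and Osbp.

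Scarb2 encodes LIMP-2, a membrane protein of lysosomes that carries the enzyme beta-glucocerebrosidase to them and belongs to the same family as the HDL receptor. It lies on the minus strand of chromosome 5 of GRCm38 (92441314 to 92506833). It was measured at 57.7, 65.5 and 72.2 CPM in MA-10 replicates 1, 2 and 3, and at 27.3, 29.6 and 27.0 CPM in STARKO1 replicates 1, 2 and 3. The highest STARKO1 library was thus well below the lowest MA-10 library. Scarb2 fell from 65.1 ± 7.25 CPM to 27.9 ± 1.43 CPM (SD, n = 3 each), a log2 fold change of -1.22 (standard error 0.156, 95% interval -1.59 to -0.85, adjusted p = 0.00861). The call was lost without any 1 of the STARKO1 replicates (adjusted p between 0.0712 and 0.0983), while the log2 fold change stayed between -1.26 and -1.12 over the 6 fits that left out 1 library. With scaling by library size alone the log2 fold change was -0.76 (adjusted p = 0.109), where the median of all genes moved up by 0.43. MA-10 replicate 1 alone, the library nearest to STARKO1 cells, differed from them by -1.05 on the log2 scale.

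Npc2 encodes the soluble lysosomal protein that binds cholesterol and hands it to NPC1. It lies on the minus strand of chromosome 12 (84754562 to 84773152). Its level was 64.3, 84.2 and 60.3 CPM in the MA-10 replicates and 42.3, 38.7 and 35.7 CPM in the STARKO1 replicates, with no overlap. Npc2 fell from 69.6 ± 12.8 CPM to 38.9 ± 3.30 CPM (SD, n = 3 each), a log2 fold change of -0.84 (standard error 0.184, 95% interval -1.28 to -0.40, adjusted p = 0.0410). The adjusted p was 0.00190 without MA-10 replicate 1 and lay between 0.0608 and 0.204 without any other single library. The log2 fold change was between -0.93 and -0.68 in the 6 fits that left out 1 library. It was -0.68 with upper quartile scaling (adjusted p = 0.0655) and -0.37 with scaling by library size alone (adjusted p = 0.293). MA-10 replicate 1 alone differed from STARKO1 cells by -0.72 on the log2 scale.

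The promoters of the 2 genes that fell are shown because these genes were called lower together. The sequences are those of RefSeq (GRCm38.p6), on the strand of the gene, with bases inside annotated exons left out. Positions are counted from the first base transcribed, and the base before it is -1. For Scarb2 the stretch covers chr5:92505658-92505907 on the minus strand, from -250 to -1, and lies between exons of a longer transcript of the same gene. For Npc2 it covers chr12:84773153-84773250 on the minus strand, from -138 to -41. Capitals mark GC boxes, read as GGGCGG on either strand.
Scarb2: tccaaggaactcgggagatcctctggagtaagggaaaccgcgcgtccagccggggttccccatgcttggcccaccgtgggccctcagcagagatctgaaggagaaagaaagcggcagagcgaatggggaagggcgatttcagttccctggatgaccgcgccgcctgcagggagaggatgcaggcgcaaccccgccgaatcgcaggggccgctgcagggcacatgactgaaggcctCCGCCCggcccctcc
Npc2: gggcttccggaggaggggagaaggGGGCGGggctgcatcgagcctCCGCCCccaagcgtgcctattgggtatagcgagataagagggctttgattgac
Scarb2 had 1 GC box in its stretch and Npc2 had 2. Such boxes were found in the windows of 7 of the 8 genes with a RefSeq promoter entry (250 bases before to 50 bases after the start), and in 35.7% of 32851 windows of the same length in all genes. The E-box core CACGTG, which is part of the element shared by many lysosomal genes, was found in 7.15% of all windows and in neither of these 2. Among the 8 windows, those of Abca1 and Nceh1 held it. The GC box and the E-box were added after the expression values were seen.

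The other 2 genes of late endosomes and lysosomes did not pass the threshold. Npc1, the membrane protein that takes cholesterol from NPC2 and moves it out of the lysosome (chromosome 18, 12189692 to 12236400, minus strand), had 44.3, 42.1 and 42.6 CPM in the MA-10 replicates and 35.7, 35.6 and 38.3 CPM in the STARKO1 replicates. The libraries did not overlap, but the log2 fold change was small at -0.23 (standard error 0.136, 95% interval -0.56 to 0.09, adjusted p = 0.239) and turned to 0.19 with scaling by library size alone. Exons of Npc1 share 192 bases with exons of Rmc1 on the opposite strand, and whether the counting used strand is not given in the sources used here. Stard3 encodes a cholesterol-binding START protein of late endosome membranes (chromosome 11, 98358368 to 98381112, plus strand). It was the least abundant of the 10 genes, with 9.96, 6.77 and 6.25 CPM in the MA-10 replicates and 11.5, 11.7 and 11.0 CPM in the STARKO1 replicates. Its log2 fold change of 0.57 (standard error 0.220, 95% interval 0.04 to 1.09) had an adjusted p of 0.114, or 0.000740 without MA-10 replicate 1 and between 0.228 and 0.276 without any other single library. A match to the core of the sterol regulatory element, TCACNCCAC on either strand, was found from -211 to -203 of Stard3, in none of the other 7 windows and in 1.24% of all windows. With bases inside annotated exons left out, the stretch of Stard3 ran only from -84 to -1, and the match lies outside it.

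The lipoprotein receptors differed in level and in spread, and neither passed the threshold. Scarb1 encodes the HDL receptor SR-BI, the main route of selective cholesteryl ester uptake in rodent steroidogenic cells (chromosome 5, 125277087 to 125341094, minus strand). Its level was 289.5, 202 and 187 CPM in the MA-10 replicates and 213, 211 and 200.3 CPM in the STARKO1 replicates, so that the STARKO1 libraries lay inside the MA-10 range. The log2 fold change was -0.12 (standard error 0.215, 95% interval -0.63 to 0.39, adjusted p = 0.689) and changed sign to 0.18 without MA-10 replicate 1, to 0.25 with scaling by library size alone and to 0.01 with upper quartile scaling. Lrp1 encodes a large endocytic receptor for apolipoprotein E-bearing lipoproteins and many other ligands (chromosome 10, 127538161 to 127621148, minus strand). It had 188, 77.1 and 109.5 CPM in the MA-10 replicates and 177, 177 and 195 CPM in the STARKO1 replicates. MA-10 replicate 1 lay inside the STARKO1 range, and the other two MA-10 libraries lay below it. The log2 fold change was 0.55 (standard error 0.324, 95% interval -0.22 to 1.32, adjusted p = 0.244), with 1.06 without MA-10 replicate 1 (adjusted p = 0.000951) and 0.30 without MA-10 replicate 2 (adjusted p = 0.453).

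The genes of cholesterol storage had lower levels in all STARKO1 libraries, without passing the threshold. Soat1 encodes the endoplasmic reticulum enzyme that esterifies cholesterol for lipid droplets (chromosome 1, 156424525 to 156474331, minus strand). Its level was 157, 248 and 218 CPM in the MA-10 replicates and 127, 133 and 127 CPM in the STARKO1 replicates. The log2 fold change was -0.69 (standard error 0.209, 95% interval -1.18 to -0.19, adjusted p = 0.0738), with adjusted p values of 0.0225 in DESeq2 and 0.000437 without MA-10 replicate 1, but between 0.136 and 0.260 without any other single library. With scaling by library size alone its log2 fold change was -0.19 (adjusted p = 0.447). Nceh1 encodes a neutral cholesteryl ester hydrolase, which acts in the opposite direction (chromosome 3, 27182965 to 27284608, plus strand). It had 55.5, 57.5 and 62.5 CPM in the MA-10 replicates and 49.8, 51.6 and 50.6 CPM in the STARKO1 replicates, a log2 fold change of -0.21 (standard error 0.139, 95% interval -0.54 to 0.12, adjusted p = 0.294). Scaling by library size alone gave Nceh1 a positive value (0.24).

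Osbp encodes a transfer protein that exchanges cholesterol for a phosphoinositide where the endoplasmic reticulum meets the Golgi (chromosome 19, 11965941 to 11994112, plus strand). It was listed at 52.2, 22.2 and 36.8 CPM in the MA-10 replicates and at 51.1, 53.1 and 50.7 CPM in the STARKO1 replicates. As for Lrp1, MA-10 replicate 1 lay among the STARKO1 libraries. The log2 fold change of Osbp was 0.48 (standard error 0.298, 95% interval -0.23 to 1.18, adjusted p = 0.269), with 0.89 without MA-10 replicate 1 (adjusted p = 0.00567) and 0.21 without MA-10 replicate 2 (adjusted p = 0.464).

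Abca1 encodes the transporter that exports cholesterol and phospholipid to apolipoprotein A-I (chromosome 4, 53030787 to 53159895, minus strand). It had the highest positive log2 fold change of the 10 genes. Its level was 217, 103 and 111 CPM in the MA-10 replicates and 314, 313 and 316 CPM in the STARKO1 replicates. All STARKO1 libraries were thus above all MA-10 libraries, and MA-10 replicate 1 was the nearest. The mean in MA-10 cells was 144 ± 63.3 CPM, against 314 ± 1.87 CPM in STARKO1 cells (SD, n = 3 each), a log2 fold change of 1.13 (standard error 0.311, 95% interval 0.39 to 1.87). The adjusted p of 0.0626 missed the threshold. It was 0.00599 in DESeq2, 0.0379 with an offset for gene length and 2.14e-05 without MA-10 replicate 1, where the log2 fold change was 1.64. Without any other single library the adjusted p lay between 0.128 and 0.217. MA-10 replicate 1 alone differed from STARKO1 cells by 0.54 on the log2 scale.

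The promoter of Abca1 is shown because it holds a match to the element bound by the liver X receptors (LXR), nuclear receptors that sense oxysterols and are known to drive Abca1. The stretch covers chr4:53159896-53160145 on the minus strand of GRCm38.p6 (RefSeq), from -250 to -1, and capitals mark the LXR element, the E-box core and 2 GC boxes.
Abca1: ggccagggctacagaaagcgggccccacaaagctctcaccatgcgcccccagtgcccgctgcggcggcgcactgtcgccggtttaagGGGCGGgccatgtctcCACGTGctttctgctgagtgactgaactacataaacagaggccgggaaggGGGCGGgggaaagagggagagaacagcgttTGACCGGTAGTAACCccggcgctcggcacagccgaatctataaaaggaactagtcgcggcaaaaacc
The LXR element was searched as GGTNA, 5 further bases and GGTNA again, on either strand. The match in Abca1 ran from -67 to -53 on the opposite strand, and is the run of 15 capitals. Such matches were found in 0.718% of all windows and in none of the other 7. The half-site of NR5A1, AAGGTCA, and the cAMP response element TGACGTCA were found in none of the 8 windows, and in 4.72% and 1.79% of all windows. A match in letters does not show that a factor binds there.

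**Figure D2:**
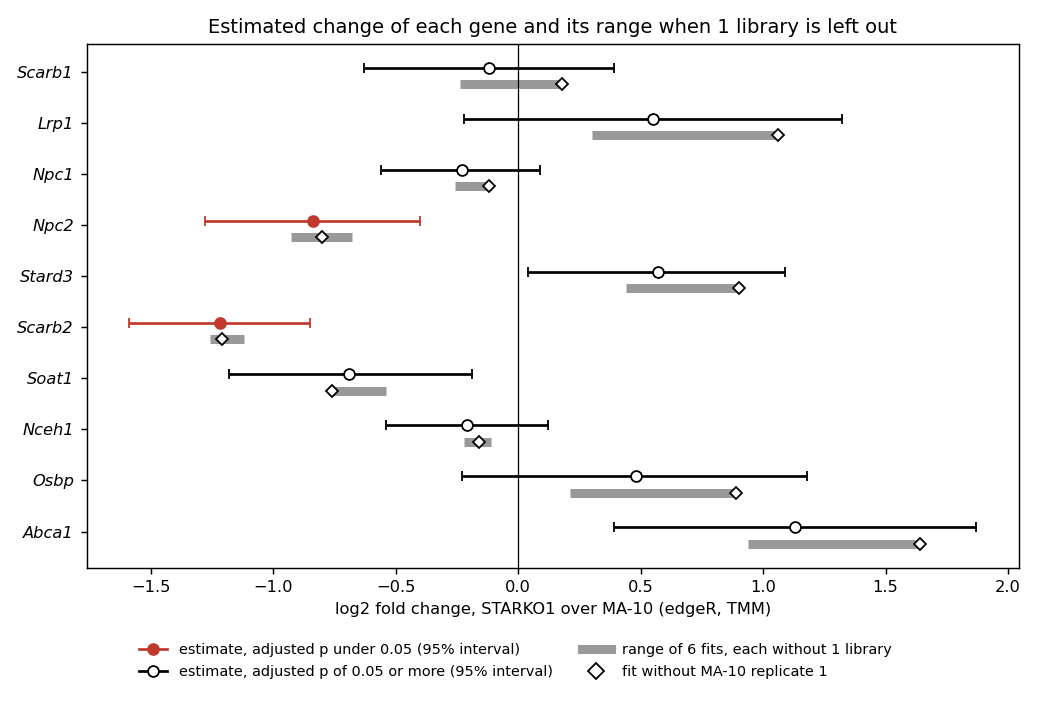
Log2 fold change of each gene (horizontal axis, STARKO1 over MA-10) with its 95% interval, above the range of 6 fits, each without 1 of the libraries, and the fit without MA-10 replicate 1. Scarb2 and Npc2 (filled) are called lower, and leaving out MA-10 replicate 1 moves Abca1 from 1.13 to 1.64, Lrp1 from 0.55 to 1.06 and Osbp from 0.48 to 0.89.

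Per kilobase of exon, Scarb1 was the most abundant of the 10 genes in both lines, at 89.8 ± 21.9 (MA-10) and 82.5 ± 2.66 (STARKO1) CPM per kb, with the SD of 3 libraries. In MA-10 cells it was followed by Soat1 (24.8 ± 5.55 CPM per kb), Npc2 (21.1 ± 3.88), Abca1 (14.0 ± 6.17), Scarb2 (13.9 ± 1.54), Nceh1 (12.2 ± 0.750), Osbp (8.26 ± 3.35), Npc1 (8.23 ± 0.225), Lrp1 (7.67 ± 3.51) and Stard3 (3.70 ± 0.972). From Soat1 downwards, the mean ± SD of each gene overlapped with that of its neighbour in this order. In STARKO1 cells Abca1 came second (30.6 ± 0.183 CPM per kb), above Soat1 (15.4 ± 0.450), and the SDs did not bridge either gap. Then came Npc2 (11.8 ± 1.00), Osbp (11.5 ± 0.283), Lrp1 (11.2 ± 0.612) and Nceh1 (10.6 ± 0.189), whose neighbours overlapped in mean ± SD. Npc1 had 7.00 ± 0.292 CPM per kb. Scarb2 (5.95 ± 0.305 CPM per kb) and Stard3 (5.51 ± 0.194) were the lowest, and overlapped with each other but not with Npc1. These levels use the combined length of all annotated exons of a gene, from 2070 bases for Stard3 to 16305 bases for Lrp1, and understate genes whose cells use only part of them.

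**Figure D3:**
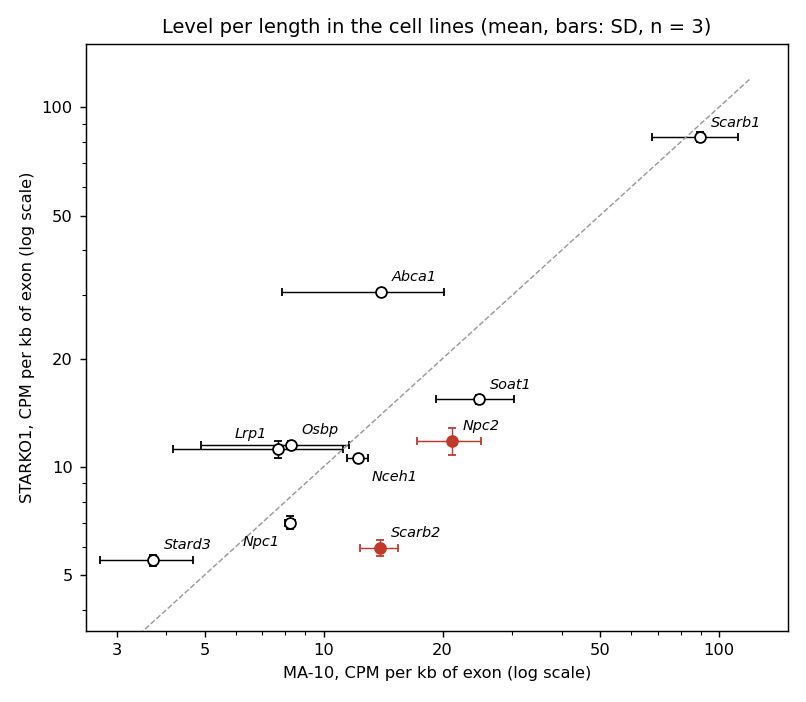
Mean level per kilobase of exon in MA-10 cells (horizontal) and STARKO1 cells (vertical), both on log scales, with SD bars (n = 3), filled points for genes called lower and a dashed line where levels are equal. Scarb1 lies near the line at the top, Abca1 lies above it, and Scarb2 and Npc2 lie below it.

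Ratios of the counts of 2 genes in the same library are not changed by scaling between libraries. The ratios were chosen after the values were seen, 8 were computed, and with 3 libraries in each line an exact permutation test cannot go below a two-sided p of 0.10. They are given here as descriptions, and the cell lines did not overlap in any of the 8. Ratios of other gene pairs were not computed, so no share over all pairs can be set beside this. All ratios but Lrp1 to Scarb1 held a gene that did not overlap by itself, as did 42.5% of all genes. Npc2 to Npc1, the partners of lysosomal release, stood at 1.45, 2.00 and 1.42 in the MA-10 replicates and at 1.18, 1.09 and 0.933 in the STARKO1 replicates. Scarb2 to Npc1 was 1.30, 1.56 and 1.69 in the MA-10 replicates and 0.763, 0.831 and 0.704 in the STARKO1 replicates. In both, all STARKO1 libraries were below all MA-10 libraries. Soat1 to Nceh1, the ester-forming against the ester-splitting enzyme, was 2.82, 4.32 and 3.49 in the MA-10 replicates and 2.55, 2.59 and 2.51 in the STARKO1 replicates, and MA-10 replicate 1 was close to the STARKO1 libraries. Abca1 to Scarb1, export against HDL-dependent uptake, was 0.748, 0.511 and 0.592 in the MA-10 replicates and 1.47, 1.48 and 1.58 in the STARKO1 replicates, without overlap.

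**Figure D4:**
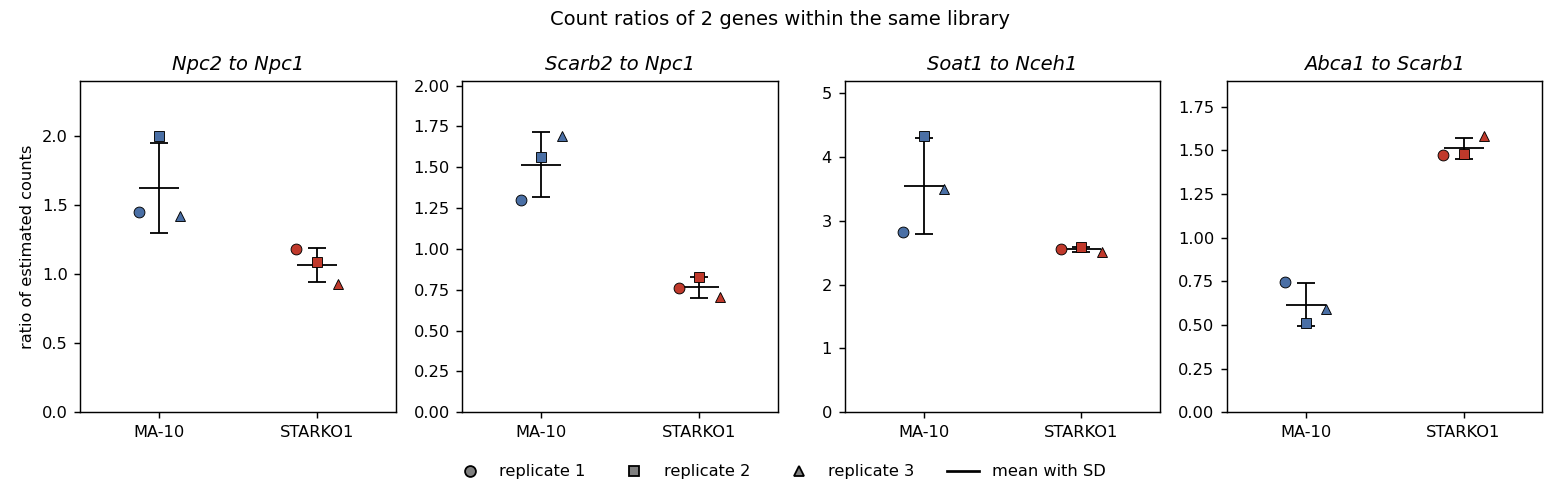
Ratio of the estimated counts of 2 genes within each library (vertical axes from 0) for MA-10 and STARKO1 cells, with the mean and SD over 3 libraries. The STARKO1 libraries lie below the MA-10 libraries for Npc2 to Npc1, Scarb2 to Npc1 and Soat1 to Nceh1, and above them for Abca1 to Scarb1.

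A list of 64 other genes of the same pathways was examined beside them, of which 47 were in the table and 43 were tested. Of these, 2 rose and 2 fell at an adjusted p under 0.05, that is 9.30% against 9.04% of all genes, and the median log2 fold change was -0.14. For the 9 genes of lipoprotein uptake that were tested, 1 rose. Sorl1, a sorting receptor related to the LDL receptor, rose from 2.14 ± 0.220 CPM to 7.60 ± 0.136 CPM (SD, n = 3 each, log2 fold change 1.83 ± 0.198 standard error, adjusted p = 0.00544). The most abundant genes that the list placed in this group were Hdlbp, Lipg and Cd36, with log2 fold changes of 0.10, -0.13 and 0.03 and adjusted p values of 0.727, 0.573 and 0.930. Whether Hdlbp takes part in lipoprotein uptake was not tested. The signs of these 3 genes depended on scaling, a length offset or 1 library. Of the cytosolic carriers and the OSBP family, 2 of the 13 that were tested fell. Stard5, a cytosolic START protein that binds sterols and bile acids, fell from 30.2 ± 1.26 CPM to 17.6 ± 0.528 CPM (log2 fold change -0.78, standard error 0.140, adjusted p = 0.0254). Osbpl2, an OSBP-related protein, fell from 44.7 ± 11.1 CPM to 22.4 ± 1.99 CPM (log2 fold change -0.99, standard error 0.219, adjusted p = 0.0412). With scaling by library size alone, neither passed (Stard5 -0.35, adjusted p = 0.388, and Osbpl2 -0.49, adjusted p = 0.158), nor did they with upper quartile scaling (adjusted p = 0.0665 and 0.0504). The adjusted p was 0.0623 for Vapa, the endoplasmic reticulum anchor of OSBP, 0.0916 for the sterol carrier Scp2 and 0.124 for Osbpl8.

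Of the 7 tested genes of efflux and its regulation, 1 rose. Nr1h3, which encodes LXR alpha, had 7.33, 7.20 and 6.96 CPM in the MA-10 replicates and 13.2, 12.1 and 13.3 CPM in the STARKO1 replicates, with an adjusted p of 0.0262 for a log2 fold change of 0.85 ± 0.155 (standard error). With scaling by library size alone the adjusted p was 0.0687. Nr1h3 was even among the MA-10 libraries, unlike Abca1. Nr1h2, which encodes LXR beta, did not pass (adjusted p = 0.0728, log2 fold change -0.45 ± 0.134), nor did Abca2 (adjusted p = 0.538, log2 fold change 0.40 ± 0.458) or Apoe (adjusted p = 0.0768, log2 fold change -2.05 ± 0.641). None of the 12 tested genes of endosomes, lysosomes and the plasma membrane passed the threshold in edgeR's quasi-likelihood test, although 9 had an unadjusted p under 0.05 (37.6% of all genes) and 8 were called by DESeq2 (28.4% of all genes). Lamp2, a major lysosomal membrane protein, had a log2 fold change of -1.15 (adjusted p = 0.0666), Lamp1 had 0.10 (adjusted p = 0.668), and Vps4a -1.83 (adjusted p = 0.0826). Of the 2 tested genes of ester hydrolysis, neither passed the threshold, with 1 at an unadjusted p under 0.05 and none called by DESeq2. Lipa, the lysosomal acid lipase, had a log2 fold change of -0.22 (adjusted p = 0.30), and Lipe, the hormone-sensitive lipase that splits cholesteryl esters in steroidogenic cells, had 0.53 (adjusted p = 0.127). Lipa had a positive value when scaled by library size alone. The count of called genes in the wider list was 24 of 43 without MA-10 replicate 1, where 65.7% of all genes were called. It was at most 3 without any other single library, where between 0.730% and 4.19% of all genes were called. Between 10 and 16 of the 43 had an unadjusted p under 0.05 in the latter fits. Of all genes, between 2626 of 12235 and 3486 of 12190 had such a p there. Each of the 4 lost its call without at least 1 library, with adjusted p values of up to 0.0535 for Sorl1, 0.161 for Nr1h3, 0.191 for Stard5 and 0.196 for Osbpl2.

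**Figure D5:**
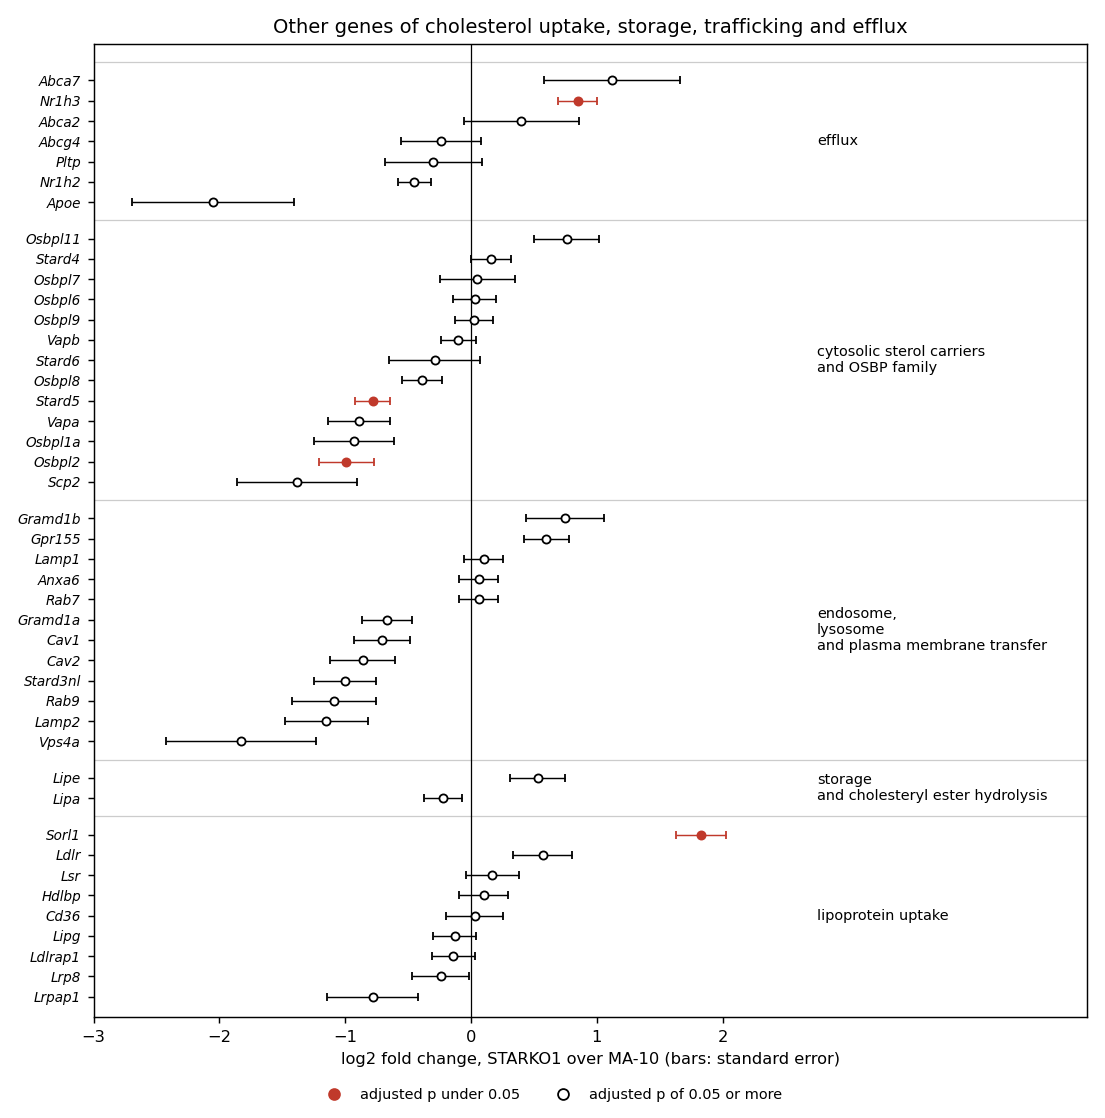
Log2 fold change (horizontal axis, STARKO1 over MA-10, bars: standard error) of the 43 tested genes of the wider list, grouped by role. The 4 filled points are Sorl1 and Nr1h3, which rose, and Stard5 and Osbpl2, which fell.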

How the data were processed

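Total RNA of 6 libraries, 3 for each cell line, was sequenced with a stranded kit. The deposited values are estimated counts per gene, for which the submitters' processing notes name STAR 2.6.1d, Partek and mm10, with no role or order. The counting method, annotation and strand setting are not given in the sources used here. Values that were not whole occurred in 54.2% of the genes, and counts were rounded. Low genes were removed with filterByExpr, and edgeR 4.0.16 (R 4.3.3) tested 11939 genes by quasi-likelihood with TMM scaling and no replicate block, with Benjamini-Hochberg adjustment over all of them. DESeq2 1.42.0, other scalings, filters and thresholds, length offsets, thinning, a replicate block and leaving out each library were alternatives. The test was also checked on simulated data. Positions and exon lengths are from GENCODE M21 (GRCm38), where 14677 of 14774 genes were found, and promoters are from RefSeq, which matched 8 of the 10 genes (not Scarb1 and Npc1). Named are the 10 genes, Star, cell type markers and, of the wider list, the genes called and the 3 most abundant in each role. The members and lists were chosen with earlier results of these data known.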

Additional observations from a re-analysis of the deposited data

How the results depend on the processing

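The log2 fold changes of Scarb2, Npc2, Soat1, Lrp1, Stard3, Osbp and Abca1 had the same sign in the 6 fits without 1 library each and in the 10 other alternative fits. MA-10 replicate 1 alone, a comparison added after seeing the data, gave -0.04 for Lrp1 and -0.02 for Osbp. Scarb1 reversed with upper quartile scaling (0.01), scaling by library size (0.25) and over the fits without 1 library each (-0.24 to 0.18). With scaling by library size, Npc1 (0.19), Nceh1 (0.24), Lipg (0.34), Lipa (0.23) and Osbpl8 (0.03) reversed as the median of all genes moved up by 0.43. Relative to that median Scarb1 stood at -0.12, Npc1 at -0.18 and Nceh1 at -0.14. Lipg reached 0.02 with upper quartile scaling, which moved the median by 0.15. Cd36 was -0.02 with length offsets and -0.07 to 0.21 without 1 library each, and Hdlbp -0.01 with length offsets, with or without the replicate block.

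Of the 10 genes, 4 were called by DESeq2 and at an adjusted p under 0.10, 1 with upper quartile scaling, without a filter and at 0.01, 0 with scaling by library size (3 at an unadjusted p under 0.05), and 0 to 7 without 1 library each. With scaling by library size, 3461 of all 11939 genes tested had an unadjusted p under 0.05. Upper quartile scaling called 829 of all 11939 genes (6.94%), and the fit without a filter called 947 of 14774 (6.41%). Of the wider list, 18 were called by DESeq2 and at 0.10, 2 with upper quartile scaling, 1 with scaling by library size and at 0.01, and 0 to 24 without 1 library each. Of all genes, against 1079, 3395 were called by DESeq2, 330 with scaling by library size (63.6% of them higher, against 47.5%), 695 with at least 10 counts in every library, 179 at 0.01, 3471 at 0.10 and 89 to 7990 without 1 library each, the 7990 being of 12167 tested without MA-10 replicate 1. Without MA-10 replicate 1, the calls rest on 2 libraries of MA-10 cells that are alike. These 2 libraries had the lowest TMM factors of the series (0.654 and 0.805). The cause of these shifts was not tested.

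Replicate numbers did not pair the libraries. Deviations of same-numbered libraries correlated at -0.0178, 0.0541 and 0.0177, and 2 of 6 libraries correlated best with their own number. With the replicate block 0 of the 10 genes were called by edgeR (4 at an unadjusted p under 0.05, with adjusted p values of 0.0521 for Scarb2 and 0.101 for Npc2), 1 of the wider list and 234 of all genes, and with block and length offsets 1, 1 and 280. With the block alone, 3692 of all 11939 genes tested had an unadjusted p under 0.05.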

Other observations

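Some genes of the wider list differed more between MA-10 libraries than between the cell lines. Apoe, the apolipoprotein that binds to lipoprotein receptors and accepts cholesterol from cells, was listed at 968, 6633 and 4433 CPM in MA-10 replicates 1, 2 and 3, and at 926, 1009 and 971 CPM in the STARKO1 replicates. Vps4a, an ATPase of endosomal sorting, stood at 79.2, 504 and 369.6 CPM, against 85.7, 87.7 and 94.6 CPM in the STARKO1 replicates. Scp2, a sterol carrier of peroxisomes and cytosol, had 53.8, 233 and 155 CPM and then 58.3, 57.4 and 54.2 CPM. Lamp2 had 127, 311 and 256 CPM and then 109.9, 108 and 96.0 CPM. In each of these genes MA-10 replicate 1 lay close to the STARKO1 libraries, and MA-10 replicates 2 and 3 lay well above them.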
